A study of Mus musculus with 12 samples.

Results

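The genes described here make the machinery that copies DNA and supplies its building blocks. They are the 43 genes on a list of replication and nucleotide supply genes, taken by symbol from tables of 23284 genes. All 43 were found and all 43 passed the filter on low counts. The choice of genes used no measured value as a rule, although it was made with earlier results of these data known.

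Messenger RNA was sequenced from 12 primary mouse thyroid carcinomas labelled as neuroendocrine and taken from an engineered model. The study asked which genes depend on Crebbp, whose product acetylates histones and helps transcription factors to activate genes. The labels gave 5 tumours the genotype Rb1/Trp53/Crebbp and 7 the genotype Rb1/Trp53. Both groups thus share engineered Rb1, which encodes the retinoblastoma protein, and engineered Trp53, which encodes p53, and no tumours with intact Rb1 or Trp53 were analysed here. The labels name no Cre driver, allele, strain, sex, age or treatment, and they do not say whether each tumour had its own mouse. The spread behind each p-value is that between tumour samples and may be technical.

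Gene counts were 9.14 M to 20.5 M per tumour in the Rb1/Trp53/Crebbp group and 9.11 M to 57.3 M in the Rb1/Trp53 group. Levels are given in CPM, counts per 1e+06 of the library size scaled by the trimmed mean of M values (TMM), and 3 counts made 0.0502 to 0.312 CPM. Differences between the genotypes were tested with edgeR's quasi-likelihood test, and "rose" or "fell" is used for an adjusted p under 0.05 (Benjamini-Hochberg over all 14989 genes tested). The Crebbp level averaged 53.9 ± 4.19 CPM (SD, n = 5) in Rb1/Trp53/Crebbp tumours and 54.6 ± 20 CPM (SD, n = 7) in Rb1/Trp53 tumours (log2 fold change -0.02 ± 0.20 SE; edgeR adjusted p = 0.957). A count summed over a whole gene can miss a deleted exon, so it does not check the labels. Trp53 fell to 16.1 ± 4.15 CPM (SD, n = 5) in Rb1/Trp53/Crebbp tumours, against 28.9 ± 4.70 CPM (SD, n = 7) in Rb1/Trp53 tumours (edgeR adjusted p = 0.00918), although both groups carry the engineered gene. All 10 neuroendocrine and C cell markers had counts in every tumour. Their summed levels were 25700 to 139000 CPM in Rb1/Trp53/Crebbp tumours and 95600 to 233000 CPM in Rb1/Trp53 tumours. Calca alone stood at 20000 to 119000 CPM and 80600 to 216000 CPM in these groups. Counts above 0 are a low bar, which thyroglobulin also met, so they do not check the neuroendocrine label.

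Replication starts when the origin recognition complex marks a site on DNA and, with Cdc6 and Cdt1, loads the ring-shaped Mcm helicase, a step called licensing. Kinases and further factors then switch the helicase on, polymerases copy both strands behind it, and ribonucleotide reductase and thymidylate enzymes supply the deoxynucleotides. Many of these genes are transcribed in late G1 under E2F transcription factors, which the retinoblastoma protein restrains and which cyclin E with its kinase helps to release.

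Most of the replication genes were higher in the Rb1/Trp53/Crebbp tumours, by modest amounts. Of the 43 genes 25 rose, which is 58.1% where 9.64% of all tested genes rose. None fell, where 8.61% of all tested genes fell, and no gene of the list lay lower without overlap (2.64% of all tested genes). At an unadjusted p under 0.05 there were 32 of the 43 genes, and the share of all tested genes at that p was not counted. The log2 fold change was above 0 for 42 of the 43 (48.5% of all tested genes) and below 0 for 1, Orc4. Their median log2 fold change was 0.57, a fold of 1.48, and the range ran from -0.05 to 1.21. Over all tested genes the median log2 fold change was -0.02 and the 90th percentile 0.595. The largest changes were in Mcm10, Orc1, Ccne2 and Rrm2, each more than doubled, and the smallest in Orc4, Orc5, Orc3 and Gins3.

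**Figure D1:**
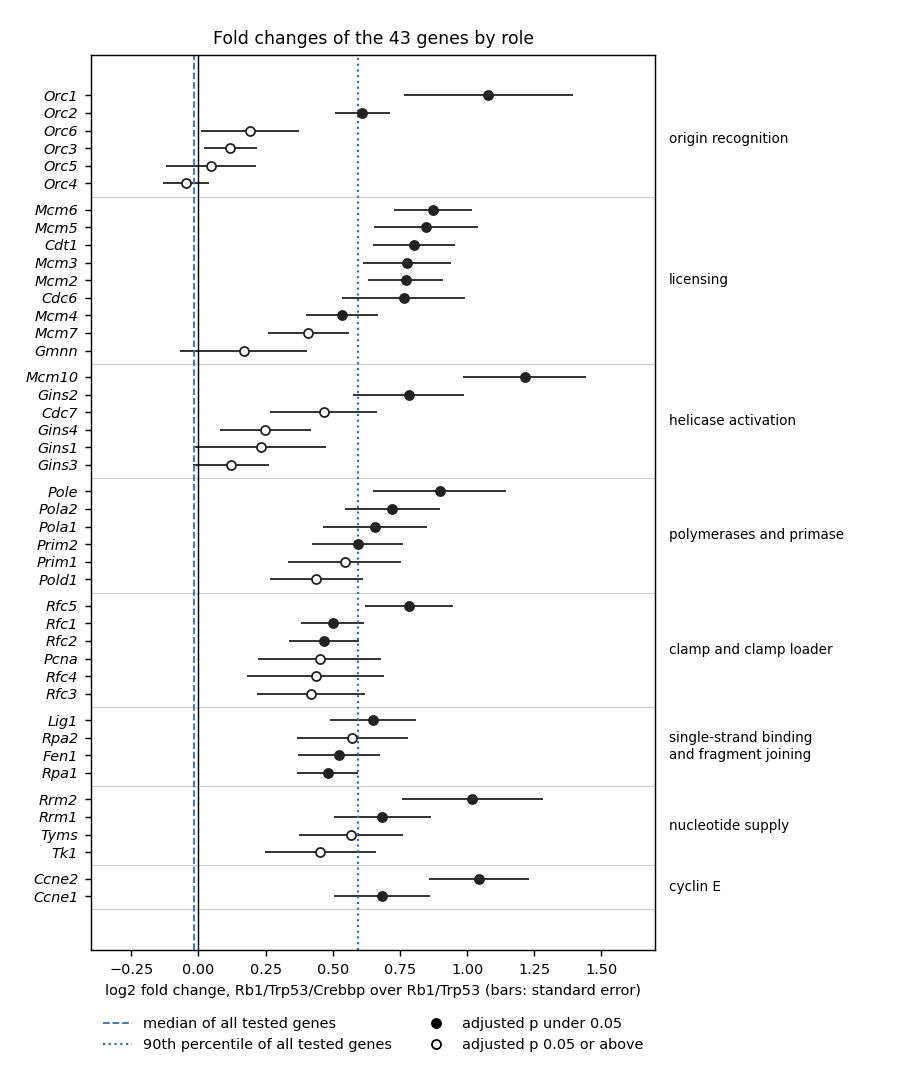
The plot gives the log2 fold change of each of the 43 genes, Rb1/Trp53/Crebbp over Rb1/Trp53, with its standard error, grouped by role. Filled points are the 25 genes that rose. The dashed line marks the median of all tested genes at -0.02 and the dotted line their 90th percentile at 0.595.

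The groups overlapped for nearly every gene in spite of these rises. Mcm6, Orc2 and Rfc1 were the 3 genes whose lowest Rb1/Trp53/Crebbp tumour lay above the highest Rb1/Trp53 tumour. That is 6.98% of the 43 genes, against 3.62% of all tested genes. This share is near the background. Rb1/Trp53/Crebbp tumour 4 and Rb1/Trp53 tumour 5 made most of the overlap. Without Rb1/Trp53/Crebbp tumour 4, 24 of the 43 genes did not overlap (55.8%, against 7.29% of all tested genes). Without Rb1/Trp53 tumour 5 there were 10 (23.3%, against 5.83%). Leaving out any other tumour gave 3 or 4 genes (6.98% or 9.3%, against 3.68% to 5.36% of all tested genes). Rb1/Trp53/Crebbp tumour 4 and Rb1/Trp53 tumour 5 were picked by their levels of these same genes. The larger counts without them are therefore no independent support.

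Each tumour sat at much the same place across the whole list. Rb1/Trp53/Crebbp tumour 2 held the highest level of its group for 40 of the 43 genes, and tumour 4 held the lowest for 38. Among the Rb1/Trp53 tumours, tumour 5, the most deeply sequenced library, was highest for 34 genes, and tumour 3, the shallowest, was lowest for 31. The order by depth was another in the Rb1/Trp53/Crebbp group, and a link between depth and these levels was not tested. There tumour 2 was the shallowest library, at 9.14 M, and tumour 3, the deepest at 20.5 M, was highest for 0 genes. The summed level of the 43 genes was 3506, 4531, 3550, 2540 and 3470 CPM in Rb1/Trp53/Crebbp tumours 1 to 5. In Rb1/Trp53 tumours 1 to 7 it was 2248, 2493, 1799, 2151, 3132, 2174 and 2570 CPM. The lowest Rb1/Trp53/Crebbp tumour thus lay below Rb1/Trp53 tumours 5 and 7 in this sum, and the other 4 lay above all 7.

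**Figure D2:**
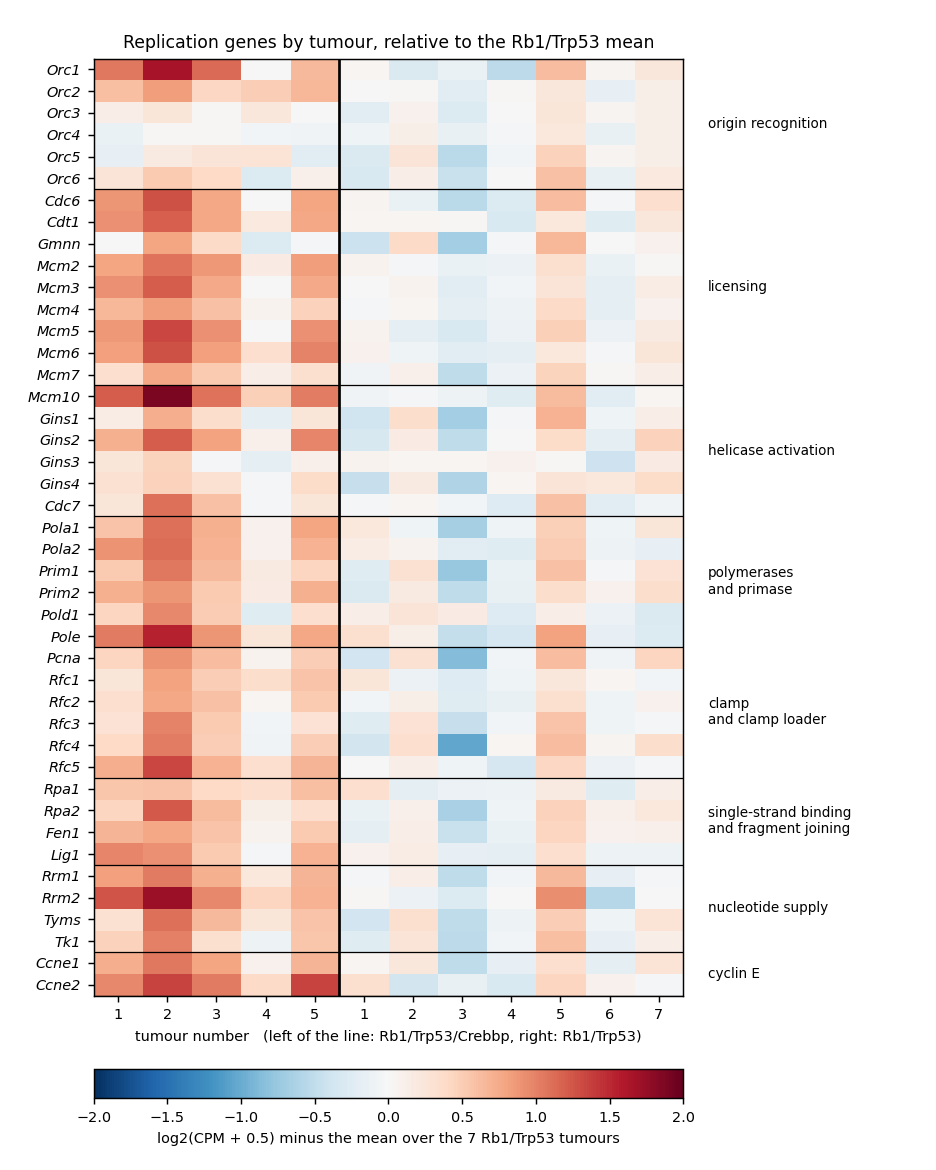
The heat map shows log2(CPM + 0.5) of each gene in each tumour minus the gene's mean over the 7 Rb1/Trp53 tumours, with the 5 Rb1/Trp53/Crebbp tumours left of the line. Red runs down whole columns, most strongly in Rb1/Trp53/Crebbp tumour 2, while tumour 4 of that group is pale and Rb1/Trp53 tumour 5 is red.

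Because the genes moved together, their promoters were read for the letters of E2F sites. RefSeq windows of 250 bases before to 50 after each annotated start (GRCm38.p6) were found for 34 of the 43 genes, which is 79.1%, and since this is under the 80% set for a check of a whole set, the share that follows describes those windows and is void as a property of the list. The letters searched were TTTCCCGC, TTTCGCGC, TTTGCCGC and TTTGGCGC on either strand, and overlapping matches in a window were counted once. They stood in 13 of 42 windows of the replication genes (31.0%), in 3.64% of the 13541 windows of tested genes matched by symbol and in 744 of all 32851 windows (2.26%). By gene, 8 of the 19 genes that rose and had a window held them, and 5 of the 15 that did not pass the test. Windows were found for 70.6% of the tested genes and 76.0% of the genes that rose, both also under 80%. Shares of these 2 sets are void in the same way. Among other replication genes, a list given below, 12 of 40 windows held the letters of E2F sites (30.0%). Among other nucleotide supply genes 1 of 27 windows did (3.7%). Windows were found for 87.5% of the genes of both lists. In the windows of mitosis genes these letters stood in 1 of 18. The letters TTTGAA of the cell cycle homology region stood in 12 of those 18 and in 5 of the 42 replication gene windows (11.9%). TTTGAA stood in 11.8% of the windows of tested genes and in 17.9% of all windows. The letters CCAAT, also searched, stood in 22 of the 42 (52.4%) and in 15 of the 18, against 37.4% of the windows of tested genes. A match is a description of letters and was not tested as a binding site.

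The stretches below hold these letters before the annotated start and are shown to compare genes that rose (Mcm6, Mcm5, Cdc6, Orc1, Pola1) with genes that did not pass the test (Mcm7, Rfc3, Orc3, Gins3). Each is written 5′ to 3′ on the gene's strand, with the matched letters in capitals. In Mcm6 and Mcm5 a pair of matches on opposite strands overlaps, so that the capitals form a longer run.
Mcm6: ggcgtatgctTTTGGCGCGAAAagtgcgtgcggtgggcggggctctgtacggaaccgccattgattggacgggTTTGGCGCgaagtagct
Mcm5: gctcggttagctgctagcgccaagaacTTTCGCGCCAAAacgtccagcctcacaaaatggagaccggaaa
Cdc6: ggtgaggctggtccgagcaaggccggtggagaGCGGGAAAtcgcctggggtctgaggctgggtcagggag
Orc1: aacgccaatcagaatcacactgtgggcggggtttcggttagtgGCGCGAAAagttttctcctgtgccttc
Pola1: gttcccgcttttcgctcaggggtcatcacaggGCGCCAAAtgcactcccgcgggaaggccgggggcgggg
Mcm7: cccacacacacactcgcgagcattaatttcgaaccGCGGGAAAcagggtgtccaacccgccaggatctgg
Rfc3: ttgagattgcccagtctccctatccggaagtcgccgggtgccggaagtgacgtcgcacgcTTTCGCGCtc
Orc3: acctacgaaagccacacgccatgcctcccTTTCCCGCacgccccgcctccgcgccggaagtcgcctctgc
Gins3: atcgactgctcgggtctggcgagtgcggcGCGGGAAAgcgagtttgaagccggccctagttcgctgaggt
On GRCm38.p6 the stretches lie at chr1:128359736-128359825 on the minus strand (Mcm6), chr8:75109329-75109398 on the plus strand (Mcm5), chr11:98907981-98908050 plus (Cdc6), chr4:108579384-108579453 plus (Orc1) and chrX:93632256-93632325 minus (Pola1). Those of Mcm7 (chr5:138172014-138172083), Rfc3 (chr5:151651209-151651278) and Orc3 (chr4:34614943-34615012) lie on the minus strand, and that of Gins3 (chr8:95633489-95633558) on the plus strand. Mcm7 and Rfc3 also held a match after the start, TTTCGCGC in Mcm7 and GCGGGAAA, the reverse complement of TTTCCCGC, in Rfc3. In Cdt1, Mcm3, Lig1 and Pold1 the matches lay only in the 50 bases after the start. The windows of Mcm2, Orc2 and Mcm10, which were among the clearest rises, held none of these letters, which says nothing of E2F at these genes outside the window or in another spelling.

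Of the origin recognition genes, which encode the 6 subunits of the complex that marks start sites, Orc1 and Orc2 rose and the other 4 did not pass the test. Orc2 stood at 48.6, 57.2, 42.6, 44.6 and 50.7 CPM in Rb1/Trp53/Crebbp tumours 1 to 5, against a lowest, median and highest level of 26.9, 32.1 and 37.4 CPM in the 7 Rb1/Trp53 tumours. All 5 lay above all 7, and tumour 3, not tumour 4, was the lowest of the 5 (log2 fold change 0.61 ± 0.10 SE; adjusted p = 0.00483). Orc1, the ATPase subunit and the least abundant transcript of the list per length, stood at 5.36, 8.34, 5.66, 2.31 and 3.91 CPM in Rb1/Trp53/Crebbp tumours, against 1.45, 2.39 and 3.83 CPM. Tumour 4 lay within the Rb1/Trp53 range and the other 4 above it (log2 fold change 1.08 ± 0.31 SE; adjusted p = 0.0336). The call was lost when any 1 of 6 tumours was left out (Rb1/Trp53/Crebbp tumour 1, 2 or 3, Rb1/Trp53 tumour 2, 4 or 6). Orc5, with the largest p of all 43 genes, stood at 28.2, 35.7, 37.7, 38.4 and 27.1 CPM in Rb1/Trp53/Crebbp tumours, against 21.5, 32.7 and 43.5 CPM, so that the Rb1/Trp53 range held every Rb1/Trp53/Crebbp value (log2 fold change 0.05 ± 0.17 SE; adjusted p = 0.862). Orc3, Orc4 and Orc6 had log2 fold changes of 0.12, -0.05 and 0.19, with standard errors of 0.10, 0.09 and 0.18.

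Of the licensing genes 7 of 9 rose, at a median log2 fold change of 0.77. Mcm6, a subunit of the helicase ring, stood at 194, 267, 195, 139 and 218 CPM in Rb1/Trp53/Crebbp tumours 1 to 5, against 94.6, 107 and 130 CPM (lowest, median, highest) in Rb1/Trp53 tumours. It rose with the smallest p of the list, by 0.87 ± 0.14 on the log2 scale (SE; adjusted p = 0.00448), and the groups did not overlap. Mcm2, another subunit, stood at 213, 262, 225, 139 and 220 CPM, against 112, 122 and 154 CPM. Tumour 4 lay below Rb1/Trp53 tumour 5 and above the other 6 (log2 fold change 0.77 ± 0.14 SE; adjusted p = 0.00673). The 6 ring subunits work in equal numbers, and their log2 fold changes were 0.77 for Mcm2, 0.78 for Mcm3, 0.54 for Mcm4, 0.85 for Mcm5, 0.87 for Mcm6 and 0.41 for Mcm7. Mcm7 was the one that did not pass (adjusted p = 0.076), with 115 to 178 CPM in Rb1/Trp53/Crebbp tumours and 73.1 to 143 CPM in Rb1/Trp53 tumours. Of the loading factors, Cdt1 stood at 63.5, 77.8, 58.0, 38.7 and 57.7 CPM, against 27.2, 34.6 and 39.2 CPM, with tumour 4 just inside the Rb1/Trp53 range (log2 fold change 0.80 ± 0.15 SE; adjusted p = 0.00781). Cdc6, the other loading factor, had 15.5 to 38.5 CPM in Rb1/Trp53/Crebbp tumours and 10.6 to 24.4 CPM in Rb1/Trp53 tumours (log2 fold change 0.76 ± 0.23 SE; adjusted p = 0.0366). Gmnn encodes geminin, which binds Cdt1 and stops a second round of licensing. It stood at 27.2, 47.1, 35.5, 22.3 and 26.6 CPM, against 16.7, 27.2 and 42.9 CPM, and 4 of the 5 Rb1/Trp53/Crebbp tumours lay within the Rb1/Trp53 range (log2 fold change 0.17 ± 0.24 SE; adjusted p = 0.638). The Cdc6 call was lost without any 1 of 7 tumours (Rb1/Trp53/Crebbp 1, 2, 3 or 5, Rb1/Trp53 2, 4 or 6), and the Mcm4 call without Rb1/Trp53/Crebbp tumour 1 or 2.

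**Figure D3:**
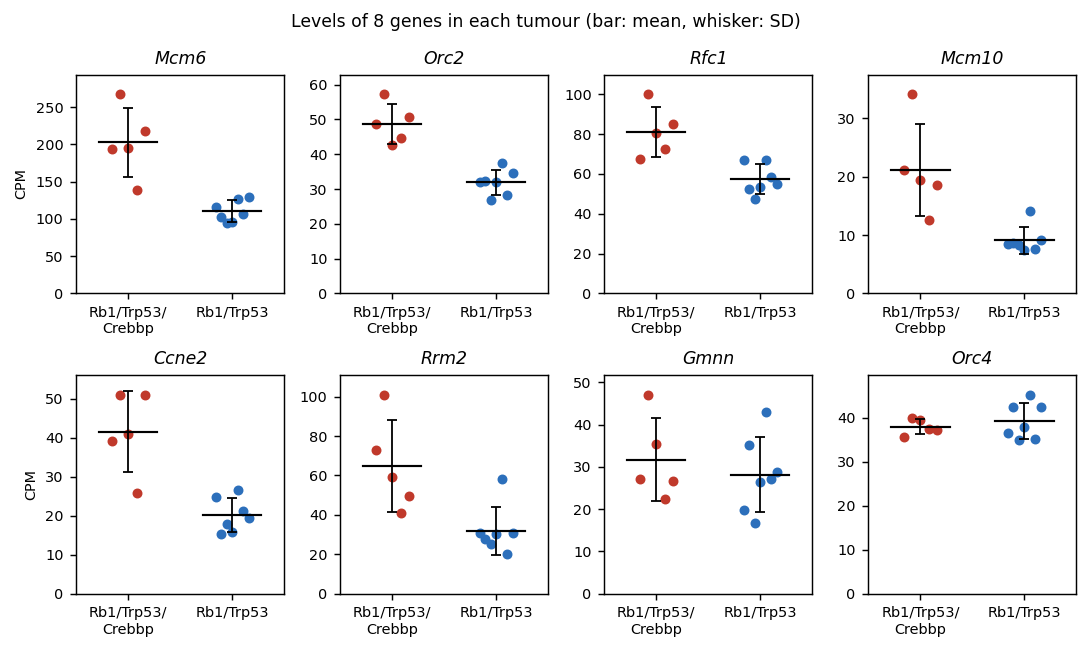
Each panel gives the CPM of 1 gene in the 5 Rb1/Trp53/Crebbp tumours (left) and the 7 Rb1/Trp53 tumours (right), with the mean and SD. Mcm6, Orc2 and Rfc1 do not overlap between groups, Mcm10, Ccne2 and Rrm2 overlap through Rb1/Trp53 tumour 5, and Gmnn and Orc4 overlap widely.

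Helicase activation genes rose in 2 of 6 cases (33.3%, against 9.64% of all tested genes). The log2 fold change was above 0 for all 6 (48.5% of all tested genes). Mcm10, which acts when the loaded helicase is switched on, had the largest fold change of the list. It stood at 21.2, 34.1, 19.4, 12.6 and 18.5 CPM in Rb1/Trp53/Crebbp tumours, against 7.41, 8.44 and 14.1 CPM in Rb1/Trp53 tumours. Only Rb1/Trp53 tumour 5 lay above the lowest Rb1/Trp53/Crebbp tumour, and the fold was 2.32 (log2 fold change 1.21 ± 0.23 SE; adjusted p = 0.00751). The GINS complex joins the helicase as a set of 4 subunits, and its genes did not all pass the test. Gins2 stood at 24.3, 34.3, 25.8, 15.8 and 29.2 CPM, against 10.1, 14.7 and 20.4 CPM, with tumour 4 inside the Rb1/Trp53 range (log2 fold change 0.78 ± 0.21 SE; adjusted p = 0.0244). The Gins2 call was lost without Rb1/Trp53/Crebbp tumour 2 or 5. Gins3 stood at 14.8, 17.0, 12, 10.8 and 13.4 CPM, against 9.18, 12.8 and 13.9 CPM, with 3 of 5 values inside the Rb1/Trp53 range (log2 fold change 0.12 ± 0.14 SE; adjusted p = 0.564). Gins1 and Gins4 had log2 fold changes of 0.23 ± 0.24 and 0.25 ± 0.17 (SE). Cdc7, the kinase that phosphorylates the Mcm ring, differed by 0.47 ± 0.20 on the log2 scale (SE) and did not pass (adjusted p = 0.114).

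Of the polymerase and primase genes 4 of 6 rose, namely Pola1, Pola2, Prim2 and Pole. Pola2, the accessory subunit of polymerase alpha, stood at 61.3, 71.7, 53.2, 34.5 and 53.1 CPM in Rb1/Trp53/Crebbp tumours, against 27.6, 30.3 and 46.8 CPM in Rb1/Trp53 tumours. Tumour 4 was inside the Rb1/Trp53 range and the other 4 above it (log2 fold change 0.72 ± 0.18 SE; adjusted p = 0.0193). Pole, the catalytic subunit of the leading-strand polymerase, stood at 60.7, 85.2, 54.4, 34.5 and 50.2 CPM, against 20.8, 25.9 and 51.2 CPM. Tumours 4 and 5 lay within the Rb1/Trp53 range, whose top was tumour 5 of that group (log2 fold change 0.90 ± 0.25 SE; adjusted p = 0.028). Pola1, the catalytic subunit of polymerase alpha, and Prim2, the large primase subunit, rose by log2 values of 0.66 ± 0.19 and 0.59 ± 0.17 (SE; adjusted p = 0.0358 and 0.0308). Prim1, the small primase subunit, did not pass (0.55 ± 0.21 SE; adjusted p = 0.086). Pold1, the catalytic subunit of the lagging-strand polymerase, stood at 90.5, 132, 95.8, 57.1 and 85.2 CPM, against 54.9, 73.6 and 80.2 CPM, and also did not pass (0.44 ± 0.17 SE; adjusted p = 0.0914). The Pola2 call was lost without Rb1/Trp53/Crebbp tumour 2. That of Pole was lost without Rb1/Trp53/Crebbp tumour 1 or 2 or Rb1/Trp53 tumour 4 or 6, and those of Pola1 and Prim2 without several tumours, these 4 among them.

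The sliding clamp and its loader gave 3 rises in 6 genes, all in loader subunits. The log2 fold changes of all 6 lay between 0.42 and 0.78, and whether clamp and loader differ was not tested. Rfc5 stood at 58.3, 88.8, 57.1, 44.1 and 56.1 CPM in Rb1/Trp53/Crebbp tumours, against 27.7, 34.3 and 46.7 CPM in Rb1/Trp53 tumours, and tumour 4 was below Rb1/Trp53 tumour 5 alone (log2 fold change 0.78 ± 0.16 SE; adjusted p = 0.0109). Rfc1, the large subunit, stood at 67.6, 99.9, 80.5, 72.4 and 85.2 CPM, against 47.6, 54.8 and 67.2 CPM. The groups did not overlap, though by a margin of under 1 CPM (log2 fold change 0.50 ± 0.12 SE; adjusted p = 0.017). Rfc2 rose by 0.47 ± 0.13 on the log2 scale (SE; adjusted p = 0.0295). Rfc4 stood at 27.0, 42.0, 28.9, 19.4 and 28.8 CPM, against 9.68, 21.1 and 31.5 CPM, and 4 of its 5 Rb1/Trp53/Crebbp values lay within the Rb1/Trp53 range (log2 fold change 0.44 ± 0.25 SE; adjusted p = 0.235). Pcna encodes the clamp itself and was the most abundant transcript of the list. It had 315 to 558 CPM in Rb1/Trp53/Crebbp tumours and 165 to 463 CPM in Rb1/Trp53 tumours, which did not pass (0.45 ± 0.23 SE on the log2 scale; adjusted p = 0.176). The Rfc1 call was lost without Rb1/Trp53/Crebbp tumour 2, and the Rfc2 call without Rb1/Trp53/Crebbp tumour 2, 3 or 5 or Rb1/Trp53 tumour 4 or 6.

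Of the genes for single-strand binding and for joining lagging-strand fragments, 3 of 4 rose. Rpa1, the large subunit of the single-strand binding protein, stood at 241, 243, 215, 207 and 249 CPM in Rb1/Trp53/Crebbp tumours, against 139, 152 and 208 CPM in Rb1/Trp53 tumours. Here tumour 4 was again lowest, and only Rb1/Trp53 tumour 1 reached it (log2 fold change 0.48 ± 0.11 SE; adjusted p = 0.017). Lig1, the ligase that seals fragments, stood at 153, 147, 112, 75.4 and 126 CPM, against 67.3, 72.5 and 97.9 CPM, with tumour 4 inside the Rb1/Trp53 range (log2 fold change 0.65 ± 0.16 SE; adjusted p = 0.0197). Fen1, the flap nuclease, rose by 0.52 ± 0.15 on the log2 scale (SE; adjusted p = 0.0347). Rpa2, the middle subunit, stood at 42.1, 74.1, 48.5, 34.1 and 39.6 CPM, against 19.7, 33.4 and 43.3 CPM. Its log2 fold change of 0.57 ± 0.21 (SE) was above that of Fen1, but tumours 1, 4 and 5 lay within the Rb1/Trp53 range and the gene did not pass (adjusted p = 0.0692). The Lig1 call was lost without Rb1/Trp53/Crebbp tumour 1 or 2, and the Fen1 call without any 1 of 8 tumours.

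In nucleotide supply both subunits of ribonucleotide reductase, which makes deoxynucleotides, rose. Rrm2, the small subunit of cycling cells, stood at 73, 101, 59.3, 41.0 and 49.5 CPM in Rb1/Trp53/Crebbp tumours, against 20.2, 30.4 and 58.3 CPM in Rb1/Trp53 tumours. Rb1/Trp53 tumour 5 alone reached the Rb1/Trp53/Crebbp values, at 58.3 CPM where the next held 30.7 CPM (log2 fold change 1.02 ± 0.26 SE; adjusted p = 0.0223). Rrm1, the large subunit, stood at 206, 240, 191, 135 and 187 CPM, against 82.0, 113 and 182 CPM, with the same tumour reaching above the lowest Rb1/Trp53/Crebbp value (log2 fold change 0.68 ± 0.18 SE; adjusted p = 0.024). Both calls were lost without Rb1/Trp53/Crebbp tumour 1 or 2. The thymidylate genes did not pass. Tk1, the thymidine salvage kinase, stood at 37.8, 55.4, 34.3, 25.5 and 40.5 CPM, against 18.8, 26.2 and 42.0 CPM (log2 fold change 0.45 ± 0.21 SE; adjusted p = 0.137). Tyms, which makes thymidylate anew, had 46.8 to 84.9 CPM in Rb1/Trp53/Crebbp tumours and 27.6 to 55.6 CPM in Rb1/Trp53 tumours (0.57 ± 0.20 SE; adjusted p = 0.0594).

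Both cyclin E genes, whose products drive entry into S phase with Cdk2, rose. Ccne2 stood at 39.1, 51.0, 40.9, 25.8 and 50.9 CPM in Rb1/Trp53/Crebbp tumours, against 15.2, 19.5 and 26.7 CPM in Rb1/Trp53 tumours. Only Rb1/Trp53 tumour 5 lay above the lowest Rb1/Trp53/Crebbp value, and the fold was 2.06 (log2 fold change 1.04 ± 0.19 SE; adjusted p = 0.00643). Ccne1 stood at 33.5, 42.2, 34.9, 21.4 and 32.3 CPM, against 13.9, 20.5 and 25.4 CPM, with tumour 4 inside the Rb1/Trp53 range (log2 fold change 0.68 ± 0.18 SE; adjusted p = 0.0229). The Ccne1 call was lost without Rb1/Trp53/Crebbp tumour 1 or 2.

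Whether paired genes moved by different amounts was tested on the ratio of their counts within each tumour, which does not depend on the scaling of the library. None of the 5 ratios passed after adjustment over the 5 (exact two-sided permutation test over the 792 splits of the tumours, smallest possible p 0.00253). Cdt1 over Gmnn, the licensing factor over its inhibitor, was 2.34, 1.65, 1.63, 1.74 and 2.17 in Rb1/Trp53/Crebbp tumours 1 to 5, against 0.909, 1.04 and 2.06 (lowest, median, highest) in Rb1/Trp53 tumours. Rb1/Trp53 tumours 1 and 3 lay among the Rb1/Trp53/Crebbp values and the other 5 below them. The mean log2 ratio was 0.91 ± 0.24 (SD, n = 5) in Rb1/Trp53/Crebbp tumours and 0.32 ± 0.46 (SD, n = 7) in Rb1/Trp53 tumours (exact permutation p = 0.0354, adjusted 0.0884). Rrm2 over Rrm2b sets the small subunit of cycling cells against the p53-regulated one, and was 2.12, 2.77, 1.69, 0.868 and 1.28, against 0.545, 0.755 and 1.83. Rb1/Trp53 tumour 5 stood at 1.83 and the next at 0.850. The mean log2 ratio was 0.69 ± 0.65 (SD, n = 5) in Rb1/Trp53/Crebbp tumours and -0.27 ± 0.54 (SD, n = 7) in Rb1/Trp53 tumours (exact permutation p = 0.0278, adjusted 0.0884). Without Rb1/Trp53 tumour 5 the difference for the Rrm2 over Rrm2b ratio was 1.15 on the log2 scale, in place of 0.96, and passed (exact permutation test, adjusted p = 0.0216). That tumour held the outlying value of this same ratio, and without it the groups no longer overlapped (0.868 against 0.850). The fit was thus picked from the values, and its pass is no independent support. Rrm2b itself stood at 38.4 ± 5.20 CPM (SD, n = 5) in Rb1/Trp53/Crebbp tumours and 36.6 ± 4.32 CPM (SD, n = 7) in Rb1/Trp53 tumours. The ratios of Rrm2 over Rrm1, Ccne2 over Ccne1 and Orc1 over Orc2 differed by 0.33, 0.35 and 0.42 on the log2 scale (exact permutation p = 0.0707, 0.0808 and 0.187; adjusted 0.101, 0.101 and 0.187).

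**Figure D4:**
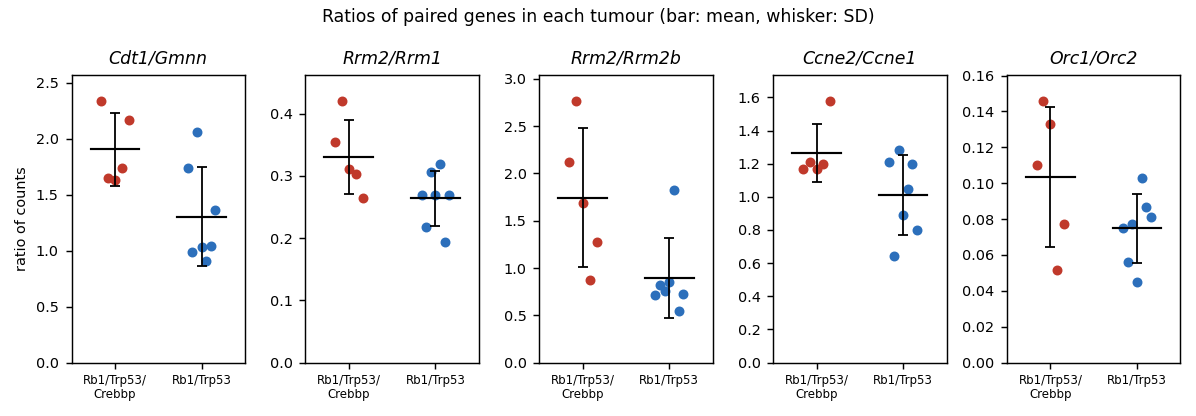
Each panel gives the ratio of the counts of 2 genes in every tumour, Rb1/Trp53/Crebbp on the left and Rb1/Trp53 on the right, with mean and SD on a linear axis. The groups overlap in all 5 panels, and Rb1/Trp53 tumour 5 stands at 1.83 in the Rrm2/Rrm2b panel.

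Per kilobase of exon Pcna, Prim1 and Mcm2 were the most abundant transcripts of the list and Mcm10 and Orc1 the least, in both groups. Pcna led at 285 ± 58.4 CPM per kb (SD, n = 5) in Rb1/Trp53/Crebbp tumours and 208 ± 68.0 CPM per kb (SD, n = 7) in Rb1/Trp53 tumours. Prim1 and Mcm2 followed, at 65.6 ± 15.5 and 62.8 ± 13.3 CPM per kb in Rb1/Trp53/Crebbp tumours and 45.0 ± 13.2 and 36.8 ± 4.36 CPM per kb in Rb1/Trp53 tumours, and these neighbours did not differ beyond their spread. The level per kb of the 6 ring subunits ran from 30.6 (Mcm4) to 62.8 CPM per kb (Mcm2) in Rb1/Trp53/Crebbp tumours, and from 20 (Mcm5) to 36.8 CPM per kb (Mcm2) in Rb1/Trp53 tumours. At the low end, Orc1 stood at 1.7 ± 0.743 CPM per kb in Rb1/Trp53/Crebbp tumours and 0.796 ± 0.255 CPM per kb in Rb1/Trp53 tumours. Lengths are unions of the exons of GENCODE M21, an annotation of GRCm38 and not the one the counts were made with, so levels per kb are approximate.

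The other genes of the pathway, from lists that do not include the 43, are given beside the 9.64% of all tested genes that rose and the 8.61% that fell. Of 40 other replication genes 17 rose (42.5%) and 1 fell, with a median log2 fold change of 0.53. Ticrr, which helps to switch on the loaded helicase, had 10.2 to 31.7 CPM in Rb1/Trp53/Crebbp tumours and 3.53 to 8.30 CPM in Rb1/Trp53 tumours, a fold of 3.2 without overlap (edgeR adjusted p = 0.00421). Topbp1, which works with it, rose 1.84-fold (adjusted p = 0.00872), and Hells, a chromatin remodeller, rose 2.01-fold (adjusted p = 0.00756). Pold4, a small subunit of the lagging-strand polymerase named here after its values were seen, was the gene that fell, at 15.2 ± 0.943 CPM (SD, n = 5) in Rb1/Trp53/Crebbp tumours and 20.7 ± 3.09 CPM (SD, n = 7) in Rb1/Trp53 tumours (log2 fold change -0.44 ± 0.12 SE; adjusted p = 0.0273). Of 24 other nucleotide supply genes 7 rose (29.2%) and 1 fell, at a median log2 fold change of 0.29. The folate enzyme gene Mthfd1 rose 1.5-fold, Umps of pyrimidine synthesis 1.36-fold and the salvage kinase gene Dck 1.91-fold (adjusted p = 0.0135, 0.015 and 0.0153). The guanine nucleotide enzymes went opposite ways: Impdh2 rose 1.33-fold (adjusted p = 0.0157), and Impdh1 fell (log2 fold change -0.50 ± 0.14 SE; adjusted p = 0.0309), both without overlap and both named after their values were seen. Of 8 partners and regulators of cyclin E, 3 rose (37.5%) and 1 fell. Skp2, which marks the inhibitor p27 for destruction, rose 1.57-fold, and Cdc25a, the phosphatase that activates Cdk2, rose 1.32-fold (adjusted p = 0.0197 and 0.0214). Fbxw7, which marks cyclin E for destruction, fell to 42.4 ± 6.49 CPM (SD, n = 5) in Rb1/Trp53/Crebbp tumours, against 56.9 ± 4.73 CPM (SD, n = 7) in Rb1/Trp53 tumours (log2 fold change -0.42 ± 0.10 SE; adjusted p = 0.0198).

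Mitosis genes, given for comparison, rose in 15 of 22 cases at a median log2 fold change of 1.09, against 0.57 for the 43 replication genes. The difference between these medians was not tested. Plk1, Cenpf and Birc5, with the smallest p, rose 2.14-fold, 2.50-fold and 2.12-fold (edgeR adjusted p = 0.0156, 0.017 and 0.0178). Without Rb1/Trp53/Crebbp tumour 2, 2 of the 22 mitosis genes and 10 of the 43 replication genes rose, where 3.67% of all genes rose in that fit.

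Some markers of thyroid follicular cells and all listed markers of adipocytes fell. Of 9 tested thyroid follicular cell markers 2 fell and 8 had a log2 fold change below 0. Their summed level was 874, 55.0, 1790, 5700 and 380 CPM in Rb1/Trp53/Crebbp tumours 1 to 5, against 1610, 8460 and 9240 CPM (lowest, median, highest) in Rb1/Trp53 tumours. Tumours 2 and 4 of the Rb1/Trp53/Crebbp group, highest and lowest in replication genes, thus held the lowest and highest follicular level of that group, whereas Rb1/Trp53 tumour 3 was lowest of its group in both. Duoxa2 was at 0 in Rb1/Trp53/Crebbp tumour 2 and Slc26a4 in 3 tumours, among them Rb1/Trp53/Crebbp tumour 4, and thyroglobulin was at 0 in no tumour. All 10 adipocyte markers fell, with summed levels of 63.8 to 151 CPM in Rb1/Trp53/Crebbp tumours and 89.1 to 2070 CPM in Rb1/Trp53 tumours. Rb1/Trp53/Crebbp tumours 2 and 4 held 74.3 and 79.7 CPM of them, nearly the same, and Lep alone was at 0, in Rb1/Trp53/Crebbp tumour 1. Of the neuroendocrine markers 1 of 10 rose and none fell, and the summed level of Rb1/Trp53/Crebbp tumours 2 and 5, at 31100 and 25700 CPM, lay below that of every Rb1/Trp53 tumour. Of 6 endothelial, 6 fibroblast and 6 macrophage markers 1, 1 and 0 fell and none rose, and the 1 lymphocyte marker of 6 that passed the filter fell. Lower levels of a cell type's genes can mean fewer of those cells or less RNA in each, which bulk samples cannot tell apart.

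When a score of the follicular markers was added to the edgeR fit, 0 of the 43 replication genes were called, 1 had an unadjusted p under 0.05, and 0.0133% of all genes rose. The median log2 fold change of the 43 was then 0.32, against 0.022 over all tested genes, and 38 of 43 were above 0. With a score of the adipocyte markers 0 were called, 22 had an unadjusted p under 0.05, and 0.454% of all genes rose. The median was then 0.58 for the 43 and -0.001 for all tested genes. Shares of all genes above 0 or at an unadjusted p under 0.05 were not counted in these fits. The scores differ between the genotypes, so other cells and genotype cannot be told apart in these fits, and the part of the other cells in the rise was not tested.

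**Figure D5:**
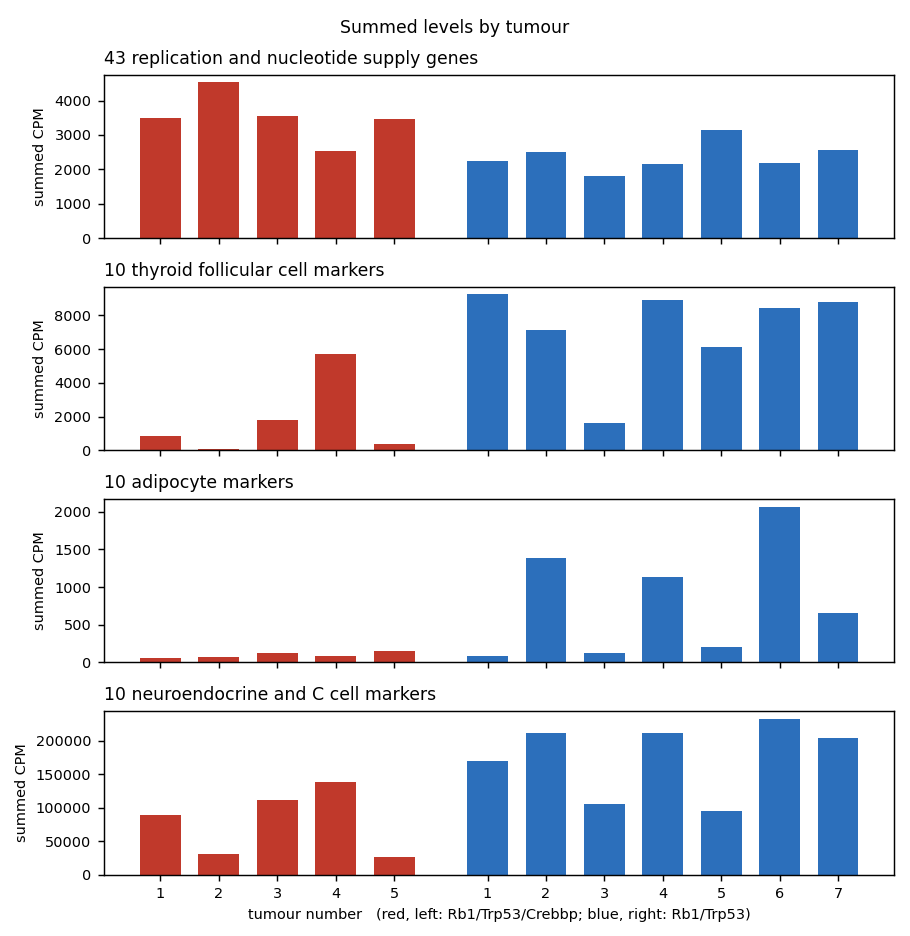
Bars give the summed CPM of the 43 replication genes and of 3 lists of 10 markers in each tumour, Rb1/Trp53/Crebbp in red on the left and Rb1/Trp53 in blue on the right. The replication sum runs from 2540 to 4531 CPM on the left and from 1799 to 3132 CPM on the right, and the follicular sum is lowest in Rb1/Trp53/Crebbp tumour 2, at 55.0 CPM.

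Among the fits that left out 1 tumour, the count of replication genes that rose was furthest from 25 without tumour 1 or 2 of the Rb1/Trp53/Crebbp group. It was 14 without tumour 1 (where 5.24% of all genes rose) and 10 without tumour 2 (3.67%), and 18 to 30 without any 1 of the other 10 tumours (5.71% to 12% of all genes). In every one of these 12 fits the log2 fold change was above 0 for 41 or 42 of the 43 genes, and none fell. These fits share most tumours, and the genes move together by tumour, so neither fits nor genes are independent. The share of all genes above 0 was not counted in them. The median log2 fold change of all tested genes ran from -0.039 to -0.004 in these fits. Orc2, Cdt1, Mcm2, Mcm3, Mcm5, Mcm6, Mcm10, Rfc5, Rpa1 and Ccne2 were called in all 12.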

How the data were processed

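Each tumour has 1 table of whole-number read counts by gene symbol, as deposited. Per the submitters' processing notes, bcl2fastq 1.8.2, TopHat2 2.0.12 and HTSeq 0.6.1 were used on build mm9. The annotation and strand setting were not stated, and reads of overlapping or antisense genes cannot be told apart without strand. Per the labels' protocols, TRIzol extracts gave poly(A)-selected NEBNext Ultra libraries. The 5 summary rows, 28.0% to 34.3% of each table, were left out. Among them were reads aligned to more than 1 place (10.9% to 18.5%), so genes with near-identical copies may be undercounted. Limits from counts cover counting error only. All pairs of libraries within a group differed by more than sampling noise.

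Genes were kept by filterByExpr (minimum count 10) and libraries scaled by TMM. All 12 tumours entered edgeR 4.0.16 (R 4.3.3; glmQLFit, robust) with genotype as the only term, and the standard error is the log2 fold change over the square root of F. The test was checked on simulated counts. It called 8 of 50 genes changed 1.5-fold, 59 of 100 changed 2-fold and 43 of 50 changed 4-fold. Of its 114 calls, fewer than in the tumours, 4 were false. Ratios were tested with exact permutations in scipy 1.17.1. Alternatives were other scalings, DESeq2 1.42.0, limma 3.58.1 (voom with sample weights), 2 filters, tumours 1 to 5 with and without the number as a block, 2 marker scores as covariates, and each tumour left out. A marker score averages standardized log2 CPM (prior count 2) over the list.

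The genes and lists were chosen with earlier results of these data known. Named with full values are, per role group, the 2 called genes with the smallest p and the gene with the largest p, and the genes of the ratios; of each other list, up to 3 called genes with the smallest p. Further genes of the 43, and Pold4, Impdh1 and Impdh2, are given in brief outside this rule. Ticrr was read as 5730590G19Rik.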

Additional observations from a re-analysis of the deposited data

Results flagged for a closer look

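Of 98 sets of values searched (each replication gene and ratio, and the summed level, in each group), 7 held a tumour whose gap to the nearest other exceeded Dixon's 95% critical value, where chance gives about 1 in 20. In 5 of these 7 it was Rb1/Trp53 tumour 5, the deepest library and the highest of its group: Mcm2 at 154 CPM (next 129 CPM), Mcm10 at 14.1 CPM (next 9.13 CPM), Cdc7 at 39.3 CPM (next 26.6 CPM), Rrm2 at 58.3 CPM (next 30.7 CPM) and Rrm2 over Rrm2b at 1.83 (next 0.850). Gins3 was low in Rb1/Trp53 tumour 6, at 9.18 CPM where the next held 12.6 CPM. Ccne2 over Ccne1 was high in Rb1/Trp53/Crebbp tumour 5, at 1.58 where the next stood at 1.21.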

How the results depend on the processing

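Of the 43 replication genes 25 rose in the fit with all tumours and also with upper-quartile scaling, with either filter, and, in 2 fits chosen after seeing the data, with the deepest library thinned or without Calca. DESeq2 called 28 (13.3% of all genes rose, against 9.64% in the fit with TMM), limma voom 31 (21.9%) and edgeR without scaling beyond library size 30 (18%); the last moved the median log2 fold change of all genes to 0.18 and that of the 43 to 0.79. None of the 43 fell in any fit run. Counts of all genes higher and of all genes lower were 1445 and 1291 with every tumour and TMM, 2691 and 757 without scaling, and 3290 and 3062 with voom, and DESeq2 called 2001 lower.

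The labels do not say whether the replicate numbers pair the tumours. Same-numbered tumours correlated at 0.159, -0.056, -0.0455, 0.121 and -0.0431, and 1 of 5 correlated best with its own number. With only 5 pairs these values cannot decide whether a pairing exists. With the number as a replicate block over tumours 1 to 5, 5 of the 43 replication genes rose, as did 244 of all genes while 219 fell; over the same tumours without the block 8 of the 43 rose, and 480 of all genes rose while 388 fell. Over all genes the follicular score left 2 higher and 2 lower, and the adipocyte score 68 and 66, with 0 of the 43 called in both.

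Of the other replication genes, 27 rose and 0 fell without scaling, 28 rose with voom, 3 rose with the block and 4 without it (0 fell in both), 0 rose with the follicular score and 1 with the adipocyte score, and 0 fell with either. Of the other nucleotide supply genes, 12 rose and 0 fell without scaling, 11 rose with voom, 1 rose and 0 fell with the block, 2 rose without it, and 0 rose or fell with either score. Of the cyclin E partners, 5 rose without scaling (0 fell), with voom and with DESeq2, and 0 rose or fell in the fits of tumours 1 to 5 or with either score. Of the mitosis genes, 0 rose with the block, 1 without it and 0 with either score. The cause was not tested.

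Leaving out 1 tumour in turn gave 10 to 30 of the 43 replication genes higher, 557 to 1800 genes higher and 517 to 1710 lower over all, 6 to 25 other replication genes higher and 0 to 1 lower, 4 to 9 other nucleotide supply genes higher and 0 to 1 lower, 0 to 4 cyclin E partners higher and 0 to 1 lower, and 2 to 22 mitosis genes higher. The log2 difference in ratio ranged from 0.519 to 0.718 for Cdt1 over Gmnn, 0.235 to 0.403 for Rrm2 over Rrm1, 0.763 to 1.182 for Rrm2 over Rrm2b, 0.25 to 0.414 for Ccne2 over Ccne1 and 0.271 to 0.644 for Orc1 over Orc2.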
